A study of Homo sapiens with 2 samples.

Results

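The 50 genes described here act in mitosis. They comprise the DEP domain genes DEPDC1 and DEPDC1B, 7 genes of the inner kinetochore, 9 of the outer kinetochore, 5 of the spindle checkpoint, 5 of the chromosomal passenger complex and the mitotic kinases, 9 kinesins, 8 spindle and cytokinesis genes, and a group of 5 made of 3 cyclins, CDK1 and TOP2A. Members are given by symbol, with no threshold on a measured value, but the list was drawn up with earlier results of these data known, DEPDC1 among them. Each locus of the long-read isoform models was given the GENCODE gene with which its exons overlapped most on the same strand, and the loci that received a member symbol were kept. A locus was found for 49 of the 50 members, and CENPI had none. An edited position was listed for 48 members in at least 1 library, out of 12178 loci listed in the series, and KIF15 had a locus but no listed position.

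The cells were HEK293T, an immortalized human embryonic kidney line that the labels also call HEK293XT. In INSCRIBE, called in situ STAMP in the labels, fixed cells receive a recombinant fusion of the cytosine deaminase APOBEC1 with a nanobody against rabbit antibodies, and cytosines converted to uracil are read as C-to-T changes. For the RBFOX2 library (labelled replicate 2) a rabbit antibody against endogenous RBFOX2 was added before the fusion. For the enzyme-only library (labelled replicate 1, called the control below) the antibody was left out, and the line and the fusion were shared by both. The labels do not name the fixative. RBFOX2 is a splicing regulator that binds UGCAUG. There was 1 library per group, so that no difference below has a replicate check, no test was possible, and the library and the treatment cannot be told apart. Intervals are 95% limits by the exact Clopper-Pearson method, and they account for the counting of sites or reads but not for spread between cultures. They treat sites as independent, although a long read can hold several sites. The data do not show which sites share a read, so the intervals may be too narrow.

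A kinetochore is the protein assembly on which spindle microtubules take hold of a chromosome. Its inner layer sits on centromeric chromatin, its outer layer binds microtubules, and the checkpoint proteins that gather on unattached kinetochores hold back anaphase. Aurora and Polo kinases correct wrong attachments, while kinesins and bundling proteins build the spindle and the midzone where the cell divides. Most of these messenger RNAs peak late in the cell cycle and are abundant in dividing lines.

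The tables list a position only when more than 0.002 of the reads of its gene were converted, and the reads are those of the whole gene. Reads of the 46 members listed in the RBFOX2 library summed to 14152 and those of the 45 listed in the enzyme-only library to 13097. Over all listed genes the reads summed to 2431345 and 2233600, so that the RBFOX2 library was the deeper one. Of the 43 members listed in both, 34 had more reads in the RBFOX2 library, a count not given here for all genes. The ratio of their reads ranged from 0.856 to 1.42 with a median of 1.14. All 43 had the same minimum of converted reads in both libraries: 1 read for members under 500 reads, and 2 or 3 for the deeper ones. Of 6 genes taken as markers of this line, 5 had an isoform model (LIN28B did not), in models pooled over both libraries. PAX2 among them had 3 reads in the control and was not listed in the RBFOX2 library, and VIM was not listed in the control. PTPRC, ALB, COL1A2 and CDH5, markers of leukocytes, hepatocytes, fibroblasts and endothelium, had no isoform model. Fewer cells of a kind and less RNA per cell cannot be told apart in these bulk libraries.

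Mitotic genes carried more edited sites in the RBFOX2 library than in the control. After positions listed in both libraries were left out, 1022 member sites remained with RBFOX2 antibody and 602 without. These were 0.935% (interval 0.878 to 0.993) of the 109357 unshared RBFOX2 sites and 0.661% (0.609 to 0.715) of the 91111 unshared control sites, so that the members' share of all sites was higher in the RBFOX2 library. The genes held 0.582% of all gene reads with RBFOX2 antibody and 0.586% without. Per 1000 gene reads, their unshared sites came to 72.2 with the antibody against 46.0 without. Over all genes these densities were 45.0 and 40.8. Scaled by the library totals, the log2 ratio of member sites (RBFOX2 over enzyme-only) was 0.50 (0.35 to 0.65).

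**Figure D1:**
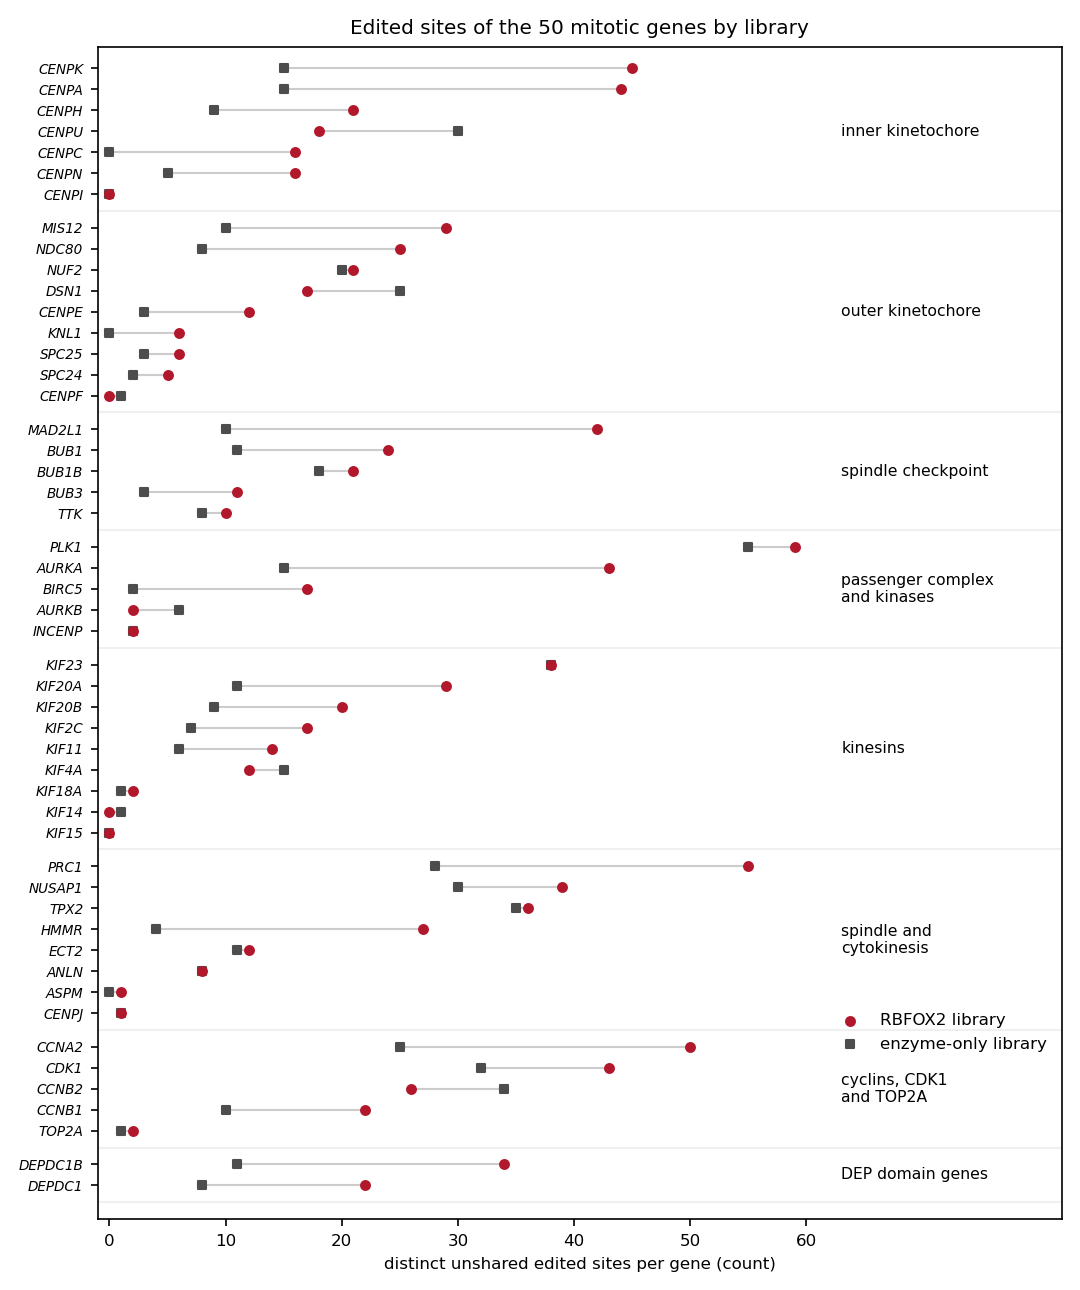
Number of distinct unshared edited sites of each of the 50 genes (horizontal axis, count) in the RBFOX2 library (circles) and the control (squares), 1 library each, grouped by role. Counts are not scaled by the larger total of the RBFOX2 library. The circle lies to the right of the square in 37 genes and to the left in 7, and the widest gap, 32 sites, is that of MAD2L1. After scaling, 21 of the 31 members with at least 20 sites lay above equality and 10 below, where 53.0% of all such genes lay above.

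Gene by gene, the ratio was computed for the 31 members with at least 20 sites over both libraries, with a pseudocount of 0.5. It was over 1 on the log2 scale, which is 2-fold, in 11 of these members, where 16.8% of the 3604 genes with as many sites were. It was under -1 in 0 of the 31, against 14.6% of all genes. CENPU, at -0.98, lay just inside this limit and passed it when sites were scaled by the reads of the gene. The ratio was above 0 in 21 members and below 0 in 10, and 53.0% of all genes lay above 0. The median over the members was 0.84 and that over all genes 0.08. All but HMMR and MAD2L1 lay inside the range from the 10th to the 90th percentile of all genes, -1.25 to 1.36. The interval excluded 0 on the upper side in 11 members, against 15.2% of all genes, and on the lower side in 1, CENPU, against 14.5%. With at least 10 sites, 15 of 37 members were over 2-fold higher and 0 were over 2-fold lower, against 19.4% and 17.2% of all genes, and 26 lay above 0, against 51.9%.

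**Figure D2:**
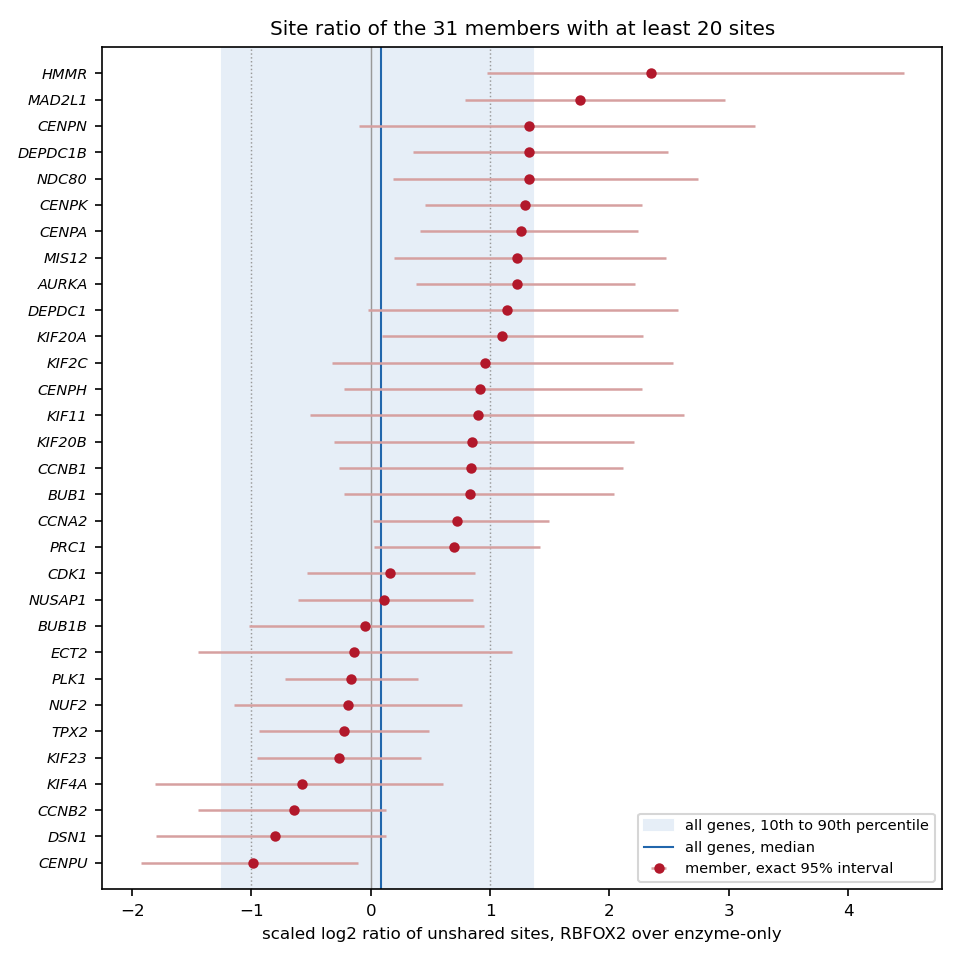
Scaled log2 ratio of unshared sites, RBFOX2 over enzyme-only, for the 31 members with at least 20 sites, with exact 95% intervals (bars, counting error only). The blue line is the median of 3604 genes (0.08) and the shaded band their 10th to 90th percentile (-1.25 to 1.36). HMMR and MAD2L1 lie above the band and no member lies below it.

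The shift of the members was set beside that of other mitotic genes. A list of 56 further genes of mitosis (other centromere proteins, SKA and shugoshin genes, APC/C and securin genes, more kinesins and spindle proteins) had a locus for 55 and an unshared site for 51. These genes had 930 RBFOX2 sites and 678 control sites. Of the 32 with at least 20 sites, 5 were over 2-fold higher and 1 over 2-fold lower in the RBFOX2 library, with a median log2 ratio of 0.02. Summed over genes with at least 20 sites, RBFOX2 sites were 1.34 times the control sites in this list, before scaling. The same value was 1.64 in the members and 1.21 in all genes. The difference between the members and this list was not tested.

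DEPDC1, at chr1:68474147-68497106 on the minus strand of hg38, encodes a protein with a DEP and a RhoGAP-like domain that is expressed in dividing cells. Its reads numbered 346 with RBFOX2 antibody and 370 without, and it had 22 unshared sites against 8. The log2 ratio was 1.14 (-0.03 to 2.57), so that its interval just includes equality although the gene had fewer reads in the library with more sites. All but 1 of its 22 RBFOX2 sites rested on 1 converted read, and the other had 2. Of these sites, 15 lay in the 3'UTR and 7 in coding sequence. In the control 7 of the 8 lay in the 3'UTR. Its paralogue DEPDC1B had 34 RBFOX2 sites and 11 control sites, with 119 and 94 reads, and a log2 ratio of 1.32 (0.35 to 2.49). Per 1000 reads DEPDC1B had 286 RBFOX2 sites against 117 control sites, and DEPDC1 had 63.6 against 21.6. Over both DEP domain genes there were 56 sites against 19, a log2 ratio of 1.30 (0.52 to 2.13).

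Inner kinetochore genes, the constitutive centromere proteins, had 160 RBFOX2 sites and 74 control sites, a log2 ratio of 0.85 (0.44 to 1.27). CENPA, the histone H3 variant that marks centromeres, had 44 sites in the RBFOX2 library and 15 in the control (log2 ratio 1.26, 0.42 to 2.24). CENPK, a subunit of the constitutive network that links CENPA chromatin to microtubule binders, had 45 and 15 (1.29, 0.45 to 2.27). The 2 genes thus had nearly equal numbers, and both intervals lay above 0. The same was seen in 15.2% of all genes with at least 20 sites. CENPN, which reads the CENPA nucleosome, had 16 and 5 sites (1.32, -0.10 to 3.22), and CENPH had 21 and 9 (0.91, -0.23 to 2.27). CENPC, the scaffold on CENPA nucleosomes, had 16 sites with 161 reads in the RBFOX2 library and is not listed in the control, where its reads are therefore unknown. CENPU, which helps recruit PLK1, went the other way with 18 sites against 30 (log2 ratio -0.98, -1.93 to -0.11), although its reads were 276 against 195. It was the lowest of the 31 members.

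The outer kinetochore, which touches the microtubules, had 121 RBFOX2 sites and 72 control sites (log2 ratio 0.49, 0.05 to 0.93). NDC80, its main microtubule-binding subunit, had 25 and 8 sites (1.32, 0.19 to 2.74). MIS12, of the complex that joins the inner and outer layers, had 29 and 10 (1.23, 0.19 to 2.47). NUF2, the partner of NDC80 in the same complex, had 21 and 20 (-0.19, -1.15 to 0.77), and DSN1, in one complex with MIS12, had 17 and 25 (-0.81, -1.80 to 0.13). Subunits of 1 complex thus lay on both sides of 0, although the intervals of NUF2 and DSN1 include it. CENPE, a kinetochore kinesin, had 12 and 3 sites, SPC24 5 and 2, and SPC25 6 and 3. KNL1, the platform for the checkpoint, had 6 sites in the RBFOX2 library alone, where 97 reads were listed. CENPF, a large kinetochore and nuclear matrix protein, had 1 site with 1110 reads in the control and none in the other.

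Spindle checkpoint genes had 108 RBFOX2 sites and 50 control sites (log2 ratio 0.85, 0.35 to 1.36), and all 5 had more in the RBFOX2 library before scaling. MAD2L1, whose protein MAD2 holds back the APC/C activator CDC20, had 42 sites against 10 and a log2 ratio of 1.75 (0.79 to 2.97). With 841 and 788 reads, every listed MAD2L1 site needed 2 converted reads. The converted reads of its unshared sites summed to 121 and 25, which leaves out 16 positions listed in both libraries. BUB1, the checkpoint kinase, had 24 and 11 sites (0.83, -0.22 to 2.04), and BUB3, its adaptor, had 11 and 3, at a minimum of 3 converted reads. BUB1B and TTK, the latter the kinase MPS1, had close numbers: 21 and 18 sites, and 10 and 8.

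Among the chromosomal passenger complex and the mitotic kinases there were 123 RBFOX2 sites and 80 control sites (log2 ratio 0.36, -0.06 to 0.78). AURKA, the kinase of spindle poles, had 43 and 15 sites (1.23, 0.38 to 2.21). BIRC5, whose product survivin targets the passenger complex to centromeres, had 17 and 2 sites at a minimum of 3 converted reads in 1328 and 1125 reads. The converted reads of these BIRC5 sites summed to 71 in the RBFOX2 library and 7 in the control. PLK1, the Polo kinase, had the most unshared sites of any member and nearly as many in each library, 59 and 55 (-0.16, -0.72 to 0.39). AURKB, the kinase of the passenger complex, had 2 sites against 6, and INCENP, its scaffold, had 2 in each. The kinases were thus spread out, with AURKA high, PLK1 near 0 and AURKB low on few sites.

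The kinesins, motors that move along or take apart microtubules, had 132 RBFOX2 sites and 88 control sites (log2 ratio 0.32, -0.08 to 0.73). KIF20A, which carries the passenger complex to the midzone, had the highest ratio of the kinesins with at least 20 sites, with 29 sites against 11 (1.10, 0.09 to 2.28). KIF2C, a microtubule depolymerase, had 17 and 7, KIF11, the motor that pushes spindle poles apart, 14 and 6, and KIF20B 20 and 9. Each of these 3 intervals includes 0. KIF23, a midzone kinesin, had 38 sites in each library, and KIF4A, a chromosome-bound motor, had 12 and 15 (-0.57, -1.81 to 0.61). KIF18A had 2 sites and 1, and KIF14 had 1 in the control alone.

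Spindle and cytokinesis genes had 179 RBFOX2 sites and 117 control sites (log2 ratio 0.35, 0.01 to 0.70). HMMR, a microtubule and hyaluronan binding protein of the spindle, had 27 sites against 4 with 106 and 100 reads, and the highest ratio of the 31 members, 2.35 (0.97 to 4.47). All 27 and all 4 rested on 1 converted read each. PRC1, which bundles midzone microtubules, had 55 and 28 sites (0.70, 0.03 to 1.42). NUSAP1 had 39 and 30 sites, TPX2, the activator of AURKA, 36 and 35, and ECT2, the exchange factor that starts the cleavage furrow, 12 and 11. These 3 genes differed by less than counting error. ANLN had 8 sites in each library and CENPJ 1 in each, while ASPM had 1 site with 608 reads in the RBFOX2 library and is not listed in the other.

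For the cyclins, CDK1 and TOP2A the numbers were 143 and 102 (log2 ratio 0.22, -0.15 to 0.61). CCNA2, cyclin A2, had 50 sites against 25 (0.72, 0.02 to 1.49), and CCNB1, the main mitotic cyclin, had 22 against 10 (0.84, -0.26 to 2.12). CCNB2 went the other way with 26 and 34 (-0.64, -1.45 to 0.13), so that the B-type cyclins lay on opposite sides of 0, each within counting error of it. CDK1, the kinase they activate, had 43 and 32 sites (0.16, -0.53 to 0.87), and TOP2A, the topoisomerase that untangles sister chromatids, had 2 and 1.

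Sites near UGCAUG made up a larger share of the RBFOX2 sites than of the cytosines they could fall on. The search covered the strand of each gene in the genome and counted a site as near when it lay within 50 nt of the hexamer. In the RBFOX2 library 42 of 1021 unshared exonic member sites were near (4.11%, 2.98 to 5.52), where the exonic cytosines of the same genes gave 2.27%, which is 1.82-fold (1.32 to 2.44). In the control 8 of 602 were near (1.33%, 0.575 to 2.60), against 1.71% from the cytosines, which is 0.775-fold (0.336 to 1.52). Over all genes but the members the same figures were 1.52-fold (1.48 to 1.57) and 0.953-fold (0.912 to 0.995). The interval of the members includes the RBFOX2 value of the other genes. For the shorter motif GCAUG the RBFOX2 enrichment was 1.09-fold, on 92 near sites. The wider mitotic list, whose median site ratio was close to that of all genes, gave 2.24-fold (1.72 to 2.85) in the RBFOX2 library. Among member sites with 1 converted read the RBFOX2 enrichment was 1.53-fold (1.04 to 2.16), with 2 reads 3.62-fold (1.48 to 7.22) on 7 near sites, and with 3 or more 3.21-fold (1.06 to 7.13) on 5. These intervals overlap.

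Of the 49 members with a locus, 27 held UGCAUG in their exons, 43 copies in all. RBFOX2 sites lay within 50 nt of 17 of these copies and control sites within 50 nt of 5. Below are 30 bases around the hexamer, 5′ to 3′ on the strand of the gene, to show where the edits lie for 10 members with at least 2 unshared RBFOX2 sites within 50 nt of 1 copy and an edited position inside the stretch shown; CENPA is among them through positions listed in both libraries. Capitals mark the hexamer (TGCATG as DNA) and each cytosine listed as edited in the RBFOX2 library.
BIRC5, 3'UTR, chr17:78224072-78224101, plus strand: ttttttggtagaTGCATGaCttgtgtgtga
CENPA, 3'UTR, chr2:26793933-26793962, plus strand: gaaggagaagaCTGCATGaCtttcctctgt
CENPK, coding, chr5:65521475-65521504, minus strand: aaCctgataaCaCTGCATGaaatgttagag
KNL1, coding, chr15:40621022-40621051, plus strand: ctaCaCatcaaaTGCATGtatctcttaagg
MIS12, coding, chr17:5488908-5488937, plus strand: acgccacaaaCgTGCATGcttcggatctaC
NDC80, coding, chr18:2616475-2616504, plus strand: atatgaagaaTGCATGtcagaagatctCtC
BUB3, coding, chr10:123155692-123155721, plus strand: atcaattgaaaaTGCATGatttgaaCaCtg
BUB1, coding, chr2:110641350-110641379, minus strand: tgattgagcaagTGCATGaCtgtgaaatca
AURKA, coding, chr20:56370583-56370612, minus strand: ttgaaggtCggaTGCATGatgagaaggtgg
KIF20A, coding, chr5:138184315-138184344, plus strand: cgttccTGCATGattgtcaatgtgaatccC

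The unshared member site with the most converted reads in the RBFOX2 library was the cytosine shown after the BIRC5 hexamer, in a deeply read gene. At position 78224091, 2 nt 3′ of the motif, 9 of 1328 BIRC5 reads were converted (0.678%), and 2 more RBFOX2 sites lay 33 and 44 nt 3′ of the motif. Around this copy the converted reads of unshared sites summed to 17 in the RBFOX2 library and 0 in the control. This leaves out a position 47 nt 3′ of the motif, listed in both libraries with 12 and 3 converted reads. BIRC5 positions with fewer than 3 converted reads are not listed, so the 0 does not mean that no control read was converted there. In BUB3 the capitals 8 and 10 nt 3′ of the motif carried 9 converted reads in all, 5 of them at position 123155717, and BUB3 had no near site in the control. CENPK had 4 sites at 32, 11, 3 and 1 nt 5′ of its motif, and KNL1 had 3, at 9 and 7 nt on the 5′ side and 26 nt on the 3′ side. MIS12, AURKA, KIF20A and the NDC80 copy shown had 2 sites each, with 1 converted read at every one, and the BUB1 copy had 3. Sites were thus found on both sides of the motif, and most of those in coding exons rested on 1 read.

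Near sites were found in 16 members in the RBFOX2 library and 7 in the control, on 1021 and 602 exonic sites. Of the 31 members with at least 20 sites, 12 had a near RBFOX2 site, where 31.8% of all such genes did, and 7 a near control site, against 23.9%, so that the number of members with a near site was not far from that of other genes. PRC1 and CENPA had the most, 5 RBFOX2 sites each and 1 control site each. The PRC1 sites of its 3'UTR copy lay between 39 nt 5′ and 44 nt 3′ of the motif, outside the 30 bases that could be shown. NUF2 had 2 near sites in each library. A high site ratio and a motif did not always go together. Among the members over 2-fold higher, MAD2L1, CENPN and DEPDC1B had no near RBFOX2 site. MAD2L1 and CENPN had no UGCAUG in the exons of their isoform models. DEPDC1 held 3 copies, and 1 of its 22 RBFOX2 sites lay near one of them, 24 nt 3′ of the motif at position 68475017, while 1 control site lay near another. Without the near sites, the ratio over all members was 0.48, based on 980 and 594 sites.

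**Figure D3:**
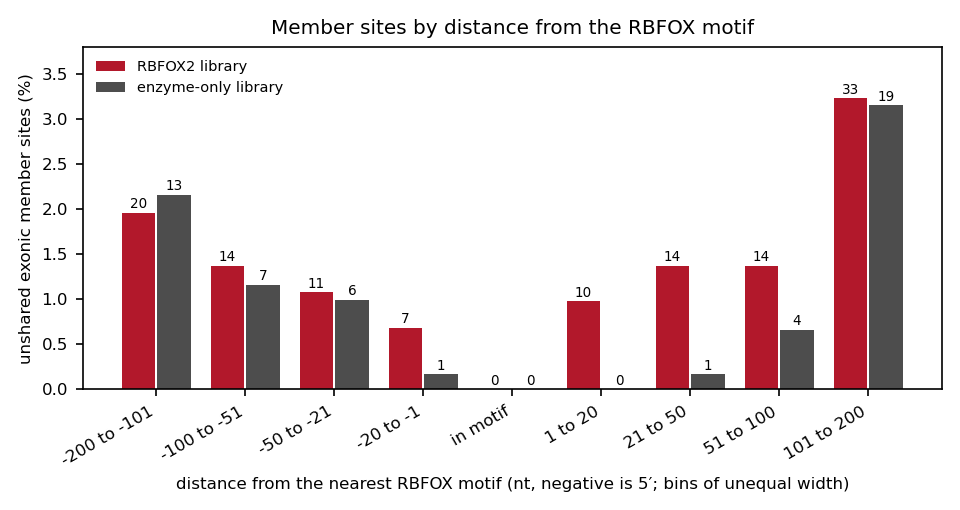
Unshared exonic member sites by their distance from the nearest RBFOX motif (nt, negative on the 5′ side, bins of unequal width), as a percentage of the sites of each library, with the number of sites above each bar. From 1 to 20 nt 3′ of the motif there were 10 RBFOX2 sites and 0 control sites, and beyond 100 nt the percentages of both libraries were close.

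APOBEC1 prefers a cytosine that follows A or U. An A or U stood directly 5′ of 831 of the 1021 exonic RBFOX2 sites (81.4%, 78.9 to 83.7) and of 424 of the 602 control sites (70.4%, 66.6 to 74.1). All exonic cytosines of the same genes gave 52.8% and 52.2%, weighted by the sites of each gene. Both libraries were thus above their genes, and the interval of the RBFOX2 library lay above that of the control. The same order held in all other genes, at 71.6% and 63.7%. The exonic cytosines of those genes gave 46.0% and 44.9%, lower than those of the members. In DEPDC1, 21 of the 22 RBFOX2 sites and all 8 control sites followed A or U. Among sites with at least 2 converted reads the shares were 94.5% (90.1 to 97.3) of 182 RBFOX2 sites and 84.1% (72.7 to 92.1) of 63 control sites.

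The excess of RBFOX2 sites was larger in 3'UTRs than in coding sequence. Of the unshared member sites, 422 of 1022 RBFOX2 sites lay in 3'UTRs (41.3%, 38.3 to 44.4), as did 193 of 602 control sites (32.1%, 28.3 to 36.0). Coding sequence held 54.0% (50.9 to 57.1) and 60.6% (56.6 to 64.6). The following densities and their ratios are not scaled by the library totals, and they are not given for all genes. In the 43 members listed in both libraries there were 60.8 RBFOX2 sites and 27.8 control sites per 1000 cytosines of 3'UTR, a ratio of 2.19 (1.84 to 2.61). In coding sequence there were 29.0 and 19.9 per 1000, a ratio of 1.46 (1.27 to 1.67), and in 5'UTRs 37 sites in each library. By gene, with numbers not scaled by the larger total of the RBFOX2 library, 31 members had more 3'UTR sites there and 9 in the control. Of the 31 members with at least 20 sites, 26 had more in the RBFOX2 library, where 58.0% of all such genes did, and 4 in the control, against 31.5%. HMMR had 14 3'UTR sites against 0, CENPA 31 against 10, AURKA 23 against 5, and CCNA2 15 against 3. PLK1 and DSN1 had fewer in the RBFOX2 library, 11 against 15 and 6 against 14. In all other genes 40.4% of the RBFOX2 sites and 34.3% of the control sites lay in 3'UTRs, so that the members' shares were close to those of other genes.

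**Figure D4:**
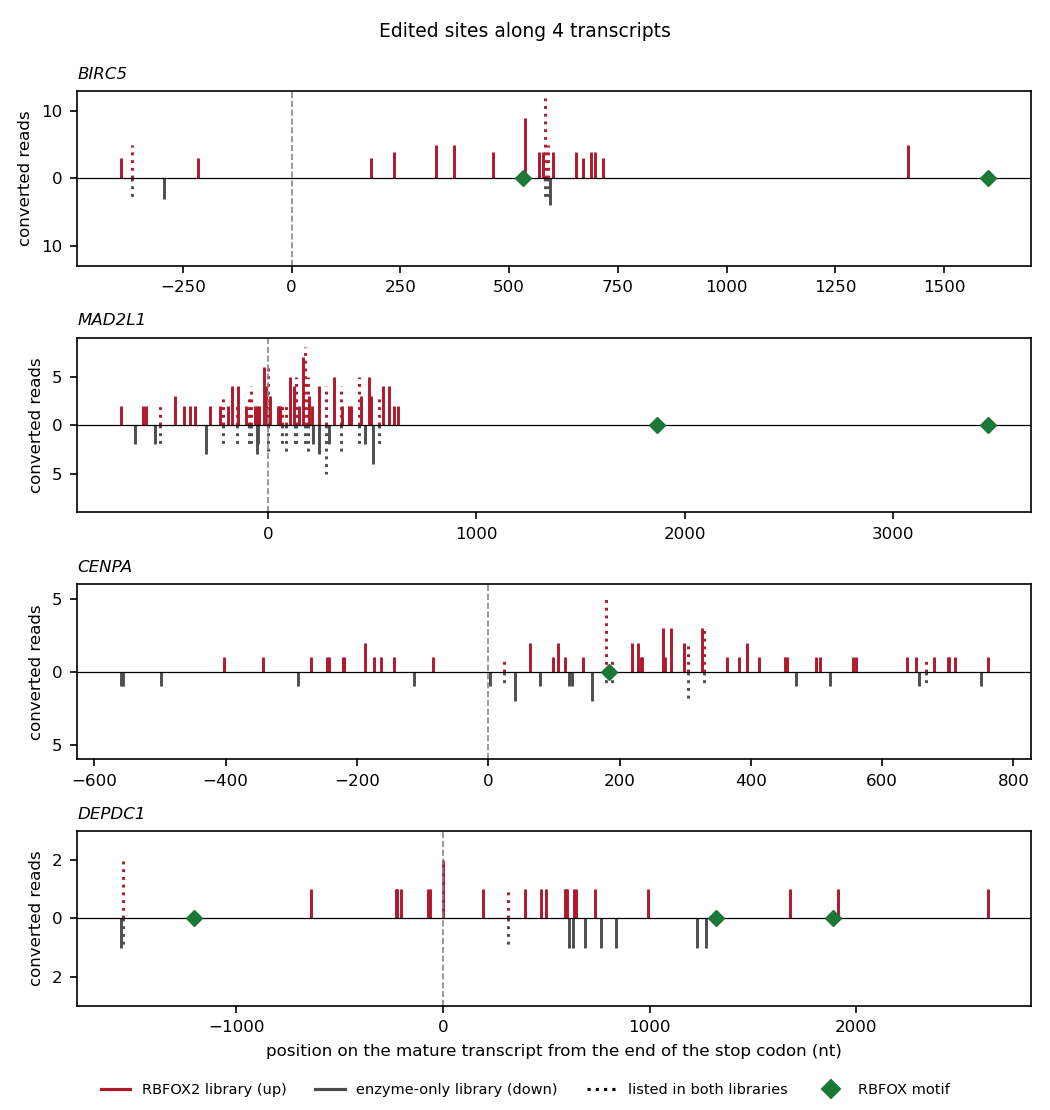
Converted reads (vertical axis) at each listed position of 4 member transcripts, by distance from the end of the stop codon (nt, dashed line), for the RBFOX2 library upward and the control downward, over the stretch that holds sites and motifs. Dotted lines are positions listed in both libraries and diamonds are RBFOX motifs of the annotated transcript; the 2 in MAD2L1 lie beyond the 3' ends of its isoform models. The 9 converted reads of the BIRC5 site stand beside its motif, whereas the MAD2L1 sites spread over the coding sequence and the proximal 3'UTR.

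RBFOX2 sites were also supported by more reads. At least 2 converted reads were found at 182 of 1022 RBFOX2 sites (17.8%, 15.5 to 20.3) and 63 of 602 control sites (10.5%, 8.14 to 13.2). Over members under 500 reads in both libraries, where 1 read suffices for a listing, these shares were 9.30% (7.49 to 11.4) and 5.28% (3.59 to 7.45). In all other genes they were 14.3% and 9.44%. By converted reads MAD2L1 held the next unshared RBFOX2 sites after BIRC5, with 7 converted reads at position 120059951 in its 3'UTR and 6 at position 120060139 in coding sequence, of 841 reads. By percentage of gene reads, sites in members with fewer reads stood higher: 4 of 114 reads in the 3'UTR of MIS12 (3.51%) and 4 of 119 in that of DEPDC1B (3.36%), neither near UGCAUG. Among unshared control sites the most converted reads were 5, at position 123165178 in the 3'UTR of BUB3, followed by 4 reads each in CCNB1, MAD2L1 and BIRC5. None of these control sites lay within 50 nt of UGCAUG.

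Positions listed in both libraries made up 12.1% (10.3 to 14.1) of the 1163 RBFOX2 member sites and 18.8% (16.01 to 21.8) of the 741 enzyme-only member sites. There were 139 such positions under member loci in both tables, and 2 more DSN1 positions were listed under another locus in the control table. The converted reads at the 139 positions summed to 259 and 227. At 85 of them the number of converted reads was equal, at 31 it was higher in the RBFOX2 library and at 23 in the control. CDK1 had the most, 20, and MAD2L1 had 16, while HMMR, NDC80 and DEPDC1B had none. As a percentage of gene reads, which were mostly more numerous in the RBFOX2 library, editing was higher there at 37 positions and lower at 102.

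Isoforms were compared by editsC, the percentage of an isoform's exonic cytosines that were listed as edited in that library alone. The tables give sites and reads per gene, so isoforms of a gene share their sites, and the values differ only in which exons an isoform holds. For 940 isoforms of 48 members editsC had a median of 4.92% with RBFOX2 antibody against 2.52% without, and 712 isoforms (75.7%) were higher in the RBFOX2 library, against 56.7% of all 108386 isoforms. A line was fitted through all isoforms, and 127 member isoforms of 20 genes (13.5%) lay more than 1.5 SD above it, where 6.47% of all isoforms did. Only 6 member isoforms (0.638%) lay as far below, against 2.45% of all, and all 6 were of CENPU.

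MAD2L1 had the highest median editsC of the members in the RBFOX2 library, 18.8%, whereas in the control its median of 4.47% was below those of CDK1 (10.5%) and PLK1 (8.70%). Its 10 isoforms lay between 15.7% and 24.8% with RBFOX2 antibody, and between 3.27% and 5.21% without. They share the sites of the gene and are not separate observations of it. All 10 isoforms lay above the limit. The same held for 23 of 29 CENPK isoforms, 23 of 27 AURKA isoforms, 10 of 13 CENPA isoforms, 9 of 11 DEPDC1B isoforms and 9 of 14 CCNA2 isoforms. CDK1 had 7 of 17 above, CENPC, HMMR and BUB1 5 each, NUSAP1 4, CENPH and KIF23 3 each, and CCNB1, MIS12, NDC80 and PRC1 2 each, while CENPE and KIF20B had 1. PRC1 had the most isoforms of any member, 84, and all 84, which share the sites of the gene, were higher in the RBFOX2 library. CENPU isoforms lay between 1.22% and 9.60% in the RBFOX2 library and between 2.88% and 10% in the control.

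DEPDC1 had 20 isoforms with a site, and 19 were higher in the RBFOX2 library. With RBFOX2 antibody their editsC lay between 0.50% and 7.73% (median 4.46%), and without it between 0% and 3.00% (median 1.46%). The isoform outside this pattern, with 8 exons and no 3'UTR part of the gene, had 1 site in each library. One isoform lay above the limit, by 1.54 SD: a model of 4 exons from 68476805 to 68481588 that ends early in the 3'UTR with 8 RBFOX2 sites and none of the control among 135 cytosines. A model with the same 3' end and 11 exons had 8 sites against 1 among 339 cytosines, and lay 0.27 SD above the line. Models with a long 3'UTR, ending at 68474154, had 21 or 22 sites with RBFOX2 antibody and 7 or 8 without. The distal part that the short models lack held 14 of the 22 RBFOX2 sites of DEPDC1 and 7 of its 8 control sites.

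**Figure D5:**
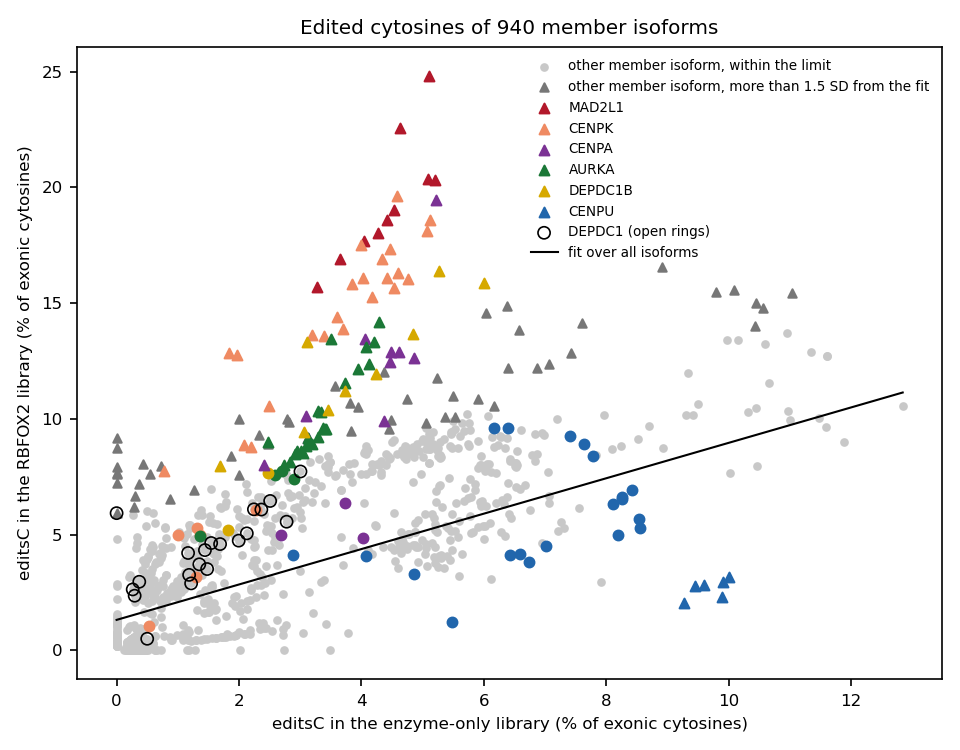
editsC of 940 member isoforms in the control (horizontal) and the RBFOX2 library (vertical), in percent of exonic cytosines, with the line fitted over all isoforms; triangles lie more than 1.5 SD from it. MAD2L1 isoforms reach 24.8%, DEPDC1 isoforms (rings) mostly lie above the line but inside the limit, and the 6 triangles below the line are CENPU.

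Sites in coding sequence were read on the MANE Select transcript of each gene for the codon change that a C-to-U conversion would make. Of 550 RBFOX2 sites, 56 would create a stop codon (10.2%, 7.78 to 13.02), as would 25 of 362 control sites (6.91%, 4.52 to 10.03). The coding cytosines of the same genes gave 10.7% and 10.3%. The missense share was 50.9% (46.6 to 55.2) with RBFOX2 antibody and 62.2% (56.9 to 67.2) without, against 53.9% and 54.0% of the cytosines. Synonymous changes made up 38.9% (34.8 to 43.1) and 30.9% (26.2 to 36.0), against 35.5% and 35.7%. The RBFOX2 intervals include the shares of the cytosines, and the control was above them for missense changes and below for stops. Stop-creating sites occurred in 28 members in the RBFOX2 library and in 18 in the control, which had fewer coding sites. At most 2 reads were converted at any of them in either library, and the same counts over all genes are not given here. In the RBFOX2 library DEPDC1B and PRC1 had the most, 5 each, and DEPDC1 had 1, in codon 739 of 811, on 1 of 346 reads.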

How the data were processed

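C-to-U edits from long-read cDNA libraries of HEK293T cells were analysed, 1 library per group, grouped by the descriptions in the labels. The authors deposited, for each site, the count of converted reads, the count of reads of the whole gene, and an edit fraction that equals the first divided by the second. A confidence score per site, a fraction between 0 and 1 deposited by the authors, was used in 1 alternative. A deposited table of PacBio isoform models gave exon positions. The labels name hg38 and an Iso-Seq kit, whereas the study's methods describe another kit (Kinnex), pbmm2 alignment, IsoQuant and custom edit calling, so that these tables may come from another run, and the replicates those methods mention were not analysed here. Those methods remove edits found in all samples and dbSNP variants; here shared positions were left out and dbSNP was not used.

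All 225811 listed rows were cytosines of hg38. Genes and regions came from GENCODE 44 (python 3.11.15, pandas 2.3.3, scipy 1.17.1, figures with matplotlib 3.10.9), coding sequence before UTRs. Expected shares are the means over exonic cytosines of the same genes, weighted by sites, with no resampling. Site ratios used a pseudocount of 0.5 per gene and none for sums, scaled by 109357 and 91111 unshared sites. EditsC was fitted by least squares over all isoforms with a site. Intervals cover counting error only, and reads carry no molecular identifiers. The calculations were tested on simulated data. Named genes were DEPDC1, DEPDC1B, the 5 highest and 5 lowest ratios among members with at least 20 sites, members with at least 2 near-motif RBFOX2 sites or an isoform beyond 1.5 SD, members with 500 reads or more in 1 library only, and the sites with the most converted reads (MIS12 and DEPDC1B sites were added after their percentages were seen); other members stand in their role groups. The members, the lists and the tests were chosen with earlier results of these data known. One sequence is not reported here.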

Additional observations from a re-analysis of the deposited data

Results flagged for a closer look

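Shared positions, those that both tables list, entered no comparison of sites. However, 3 of the 139 shared member positions lay within 50 nt of UGCAUG, and at 2 of them more than 2 times as large a share of the gene's reads was converted in the RBFOX2 library as in the enzyme-only control. In CENPA, position 26793944 on chromosome 2, directly 5′ of the motif in the 3'UTR, had 5 of 210 reads converted in the RBFOX2 library (2.38%, exact interval 0.778 to 5.47) and 1 of 170 in the enzyme-only library (0.588%, 0.0149 to 3.23). In BIRC5, position 78224136 on chromosome 17, 47 nt 3′ of the motif in the 3'UTR, had 12 of 1328 reads converted (0.904%, 0.468 to 1.57) and 3 of 1125 (0.267%, 0.0550 to 0.777). The intervals overlap at both positions, and the difference was not tested. The other shared position near a motif, CENPA 26793952, had 1 converted read in each library.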

How the results depend on the processing

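No paired analysis was possible because the labels number the libraries 1 and 2, so that the groups share no replicate number, and no replicate could be left out with 1 library per group. Of 89 alternative values, 60 stayed within the interval or 1.5 times the count of the main value, 29 moved and 0 reversed. With sites of at least 2 converted reads, the member ratio was 0.67, 1 of the 2 members that still had 20 sites was over 2-fold higher, in place of 11 of 31, the motif enrichment was 3.44-fold, the share after A or U was 94.5% (RBFOX2) and 84.1% (enzyme-only), the 3'UTR share 54.4% and 39.7%, and the coding share 44.5% in the RBFOX2 library. CENPU alone passed 2-fold lower, 1 member in place of 0, when members under 500 reads in both libraries, an equal minimum of reads or scaling by gene reads was used. RBFOX2 motif enrichment was 1.31-fold within 200 nt and 1.09-fold for GCAUG, and the enzyme-only value was 0.269-fold within 20 nt. Counting 3'UTR before coding sequence gave 3'UTR shares of 54.1% and 43.7% and coding shares of 41.2% and 49.0%. Members under 500 reads had multi-read shares of 9.30% and 5.28% and a shared share of 15.9% in the enzyme-only library. With shared sites kept, the enzyme-only library had 74.7% after A or U, 36.0% in 3'UTRs and 16.1% with at least 2 reads. Of 940 member isoforms, 76 lay above and 2 below at 2 SD. With 1 isoform per gene, 11 of 48 lay above and 0 below. The shares of all isoforms at these settings are not given here, so these counts cannot be set against other genes. The cause of these moves was not tested beyond the smaller number of sites or isoforms. No member site had a confidence score over 0.5, so that alternative gave no value. The study states a limit of 0.5 for the sites of its short-read data, and its long-read methods name none. Chosen after seeing the data, leaving out each member in turn gave ratios from 0.46 (without MAD2L1) to 0.55 (without PLK1), and leaving out near-motif sites gave 0.48. Depth limits most sites to 1 converted read, and sites below 0.002 of a gene's reads are not listed.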
